A study of Homo sapiens with 12 samples.

Results

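Heat shock factor 1 (HSF1) and 9 chaperone genes were followed in 2 lymphoma lines, SUDHL6 and SUDHL16, before and after they had acquired resistance to venetoclax. The members were fixed by name: HSF1, HSPA1A, HSPA1B, HSPA8, HSP90AA1, DNAJB1, HSPH1, HSPD1, HSPE1 and HSPB1. Each was found by its GENCODE symbol, so that 10 of the 60675 gene identifiers in the count files were described, and all 10 passed the filter on low counts in both lines. Both lines are human diffuse large B-cell lymphoma (DLBCL) lines. The 4 groups were SUDHL6 parental (libraries CE-7, CE-8 and CE-9), SUDHL6 resistant (CE-10, CE-11 and CE-12), SUDHL16 parental (CE-25, CE-26 and CE-27) and SUDHL16 resistant (CE-28, CE-29 and CE-30), with 3 RNA sequencing libraries each. Venetoclax (ABT-199) inhibits the anti-apoptotic protein BCL2. Each resistant line was selected from its own parental line by long exposure to rising drug concentrations. It grew at no less than 10 times the IC50 of the starting cells. Per the paper, the resistant lines were kept in venetoclax, and cells went into fresh media for experiments. Effects of this drug exposure cannot be told apart from those of resistance. There was 1 resistant line per parental line, so that the 3 libraries of a group share a culture history, and nothing in the labels says that they came from separate cultures. The p-values therefore measure the spread between these libraries only, which may be technical. The library kit and the sequencer differed between the lines, and their effects cannot be told apart from those of the line.

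Heat shock proteins bind unfolded or newly made proteins and help them fold, travel or be degraded. In unstressed cells, HSF1 is held inactive by chaperones, and when misfolded protein draws these away it forms trimers that bind repeats of the sequence nGAAn in the promoters of chaperone genes. HSPA8 is the constitutive cytosolic HSP70 and HSPA1A and HSPA1B encode the stress-inducible HSP70. DNAJB1 is a J-domain protein that stimulates the ATPase of HSP70, and HSPH1 is an HSP110 that exchanges its nucleotide. HSP90AA1 is the stress-inducible cytosolic HSP90. HSPD1 and HSPE1 form the mitochondrial chaperonin HSP60 and its lid HSP10, and HSPB1 is the small heat shock protein HSP27, which holds unfolded proteins without using ATP. In lymphoid cells HSP90 and HSP70 are known for sustaining signalling kinases, and HSP27 for opposing apoptosis.

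SUDHL6 libraries held 33992784 to 40885665 counts, and SUDHL16 libraries other than CE-26 held 14335460 to 22068221. CE-26, a SUDHL16 parental library, stood apart: it held 4131927 counts, and protein-coding genes took 55.4% of them (84.3 to 90.2% elsewhere in SUDHL16). The change of each member in SUDHL16 is therefore also given without it. The B-cell markers matched the label, since 6 of 6 were at 1 CPM (read count scaled to a library of 1000000 reads) or more in every library of each group. Of the 5 fibroblast markers, the summed level was 19.8 to 49.2 CPM in SUDHL16 parental and 0.134 to 0.518 CPM in SUDHL16 resistant libraries. DCN made up 19.7 to 25.5 CPM of it in the parental libraries, COL1A2 reached 9.99, PDGFRB 7.23 and COL3A1 6.54 CPM in at least 1 of them, and COL1A1 was at 0 in all 3. The fibroblast sum was highest in CE-26 and was 19.8 and 20.1 CPM in the other parental libraries. The 5 epithelial markers summed to 14.1 CPM in CE-26, to at most 0.0551 CPM in the other parental and at most 0.737 CPM in the resistant SUDHL16 libraries, with EPCAM, KRT8, KRT18 and KRT19 at 0 in the latter. The 5 myeloid markers summed to 11.7 CPM in CE-26, to at most 1.24 CPM in the other parental and at most 0.938 CPM in the resistant SUDHL16 libraries, with S100A8 at 0 in parental and CSF1R, LYZ and CD163 at 0 in resistant ones. Of the 5 T-cell markers, the summed level was 1.98 to 15.2 CPM in SUDHL16 parental and 16.5 to 19.9 CPM in SUDHL16 resistant libraries, with CD3D and CD2 at 0 in the latter. The part of these genes in the results on SUDHL16 was not tested.

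The promoter sequences are shown because HSF1 acts through them. RefSeq promoters (GRCh38.p14) were matched for 9 of the 10 members, in 13 entries of 300 bases each, and HSF1 had no entry. The search was for 3 adjacent HSF1 repeats in alternating direction, either GAA, TTC and GAA or TTC, GAA and TTC, with any 2 bases between neighbours. These forms are reverse complements of each other, so that both strands were covered. This 13-base motif stood in 172 of 35116 promoters (0.490%) and in those of 3 members, HSPA8, HSP90AA1 and HSPD1. HSPA8 held it 2 times. A shorter 8-base core of 2 repeats lies within the longer motif. It is GAA and TTC or TTC and GAA, with any 2 bases between them. The core stood in 13.5% of promoters and in those of 7 members. These shares are per promoter, while a member was counted if any of its entries matched. HSP90AA1, HSPD1 and DNAJB1 had several entries, and entry 1 of each held neither form. The HSP90AA1 and HSPD1 stretches below come from entry 2. The HSPH1 and HSPE1 entries held neither. For HSPE1 this is limited by the entry, chr2:197500129-197500428 on the plus strand, because GENCODE starts the gene at 197500140. Most bases upstream of that start were therefore outside the HSPE1 search. The HSPD1 motifs lie there, within chr2:197500048-197500090, upstream of the GENCODE start of HSPE1. Whether they act on HSPE1 was not tested. The stretches below lie upstream of the RefSeq start on the coding strand of each gene, and capitals mark the 13-base motif or, where there was none, the 8-base core. The first is the promoter of HSPB1, the member that changed most, at chr7:76302423-76302672 on the plus strand, and the second is that of HSPA8, at chr11:123062137-123062386 on the minus strand.
HSPB1: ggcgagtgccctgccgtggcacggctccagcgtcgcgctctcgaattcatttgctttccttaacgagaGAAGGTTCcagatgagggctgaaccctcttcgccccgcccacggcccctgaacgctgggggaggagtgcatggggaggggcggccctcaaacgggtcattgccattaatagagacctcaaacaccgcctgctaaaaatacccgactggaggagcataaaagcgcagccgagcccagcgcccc
HSPA8: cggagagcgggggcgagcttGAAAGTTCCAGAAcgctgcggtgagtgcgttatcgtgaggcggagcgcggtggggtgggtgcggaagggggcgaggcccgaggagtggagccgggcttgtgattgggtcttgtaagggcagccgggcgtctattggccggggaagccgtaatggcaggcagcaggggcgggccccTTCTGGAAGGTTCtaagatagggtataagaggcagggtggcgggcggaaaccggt
The next stretches show the motif or core with its flanks in the cytosolic HSP90 gene (chr14:102087100-102087152, minus strand), the chaperonin gene (chr2:197500048-197500090, minus strand), and the inducible HSP70 pair (chr6:31815417-31815464 and chr6:31827613-31827660, plus strand).
HSP90AA1: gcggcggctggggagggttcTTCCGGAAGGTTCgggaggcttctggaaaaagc
HSPD1: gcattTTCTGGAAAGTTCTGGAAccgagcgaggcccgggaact
HSPA1A: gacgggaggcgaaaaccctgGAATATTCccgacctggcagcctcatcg
HSPA1B: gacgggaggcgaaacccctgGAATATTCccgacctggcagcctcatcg
The HSPD1 stretch holds 2 overlapping copies of the motif. In HSPB1 the core began 182 bases before the start, and in HSPA8 the motifs began 230 and 55 bases before it. A match of letters is a description of the sequence and not of a bound site.

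HSPB1 was the member that rose in both resistant lines. The gene (ENSG00000106211) lies at 76302673 to 76304295 on chromosome 7 and has 3 exons. In SUDHL6 its level was 6.84, 5.52 and 7.30 CPM in the parental libraries and 20.3, 20.4 and 18.3 CPM in the resistant libraries. The groups did not overlap, and the lowest resistant library lay above the highest parental library by more than the range of either group. The mean went from 6.55 ± 0.926 to 19.7 ± 1.16 CPM (SD, n = 3), a log2 fold change of 1.58 (SE 0.10, 95% interval 1.37 to 1.79), or 2.99-fold, with an edgeR quasi-likelihood adjusted p of 7.00e-08. These values rest on 187 to 297 reads per parental library and 666 to 823 per resistant library. HSPB1 was the only member of 10 that was called in SUDHL6, where a call needs both a 1.5-fold change and an adjusted p below 0.05, against 8.96% of the 16662 genes tested, 4.31% of them higher.

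In SUDHL16 the parental level of HSPB1 in CPM was lower and the resistant level was close to that of SUDHL6. CPM were scaled within each line and the kits differed, so that levels are not on a common scale between lines. The parental libraries held 1.82, 3.10 and 2.92 CPM, and the resistant libraries held 25.2, 16.05 and 18.4 CPM. Every resistant library was again above every parental library. The mean went from 2.61 ± 0.693 to 19.9 ± 4.75 CPM (SD, n = 3), a log2 fold change of 2.96 (SE 0.40, 95% interval 2.05 to 3.87), or 7.77-fold, with an edgeR adjusted p of 0.00486. The parental value of 3.10 CPM came from 9 reads in CE-26. Without that library the change was 8.46-fold with an edgeR adjusted p of 0.00217. HSPB1 was also the only member called in SUDHL16, against 5.30% of 15708 genes, 3.20% of them higher. Without CE-26, 2 members were called against 10.0% of 16280 genes. In both lines HSPB1 was called under each alternative that was run. It was 1 of 37 genes called higher in both lines, which is 0.273% of the 13576 genes tested in both.

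**Figure D1:**
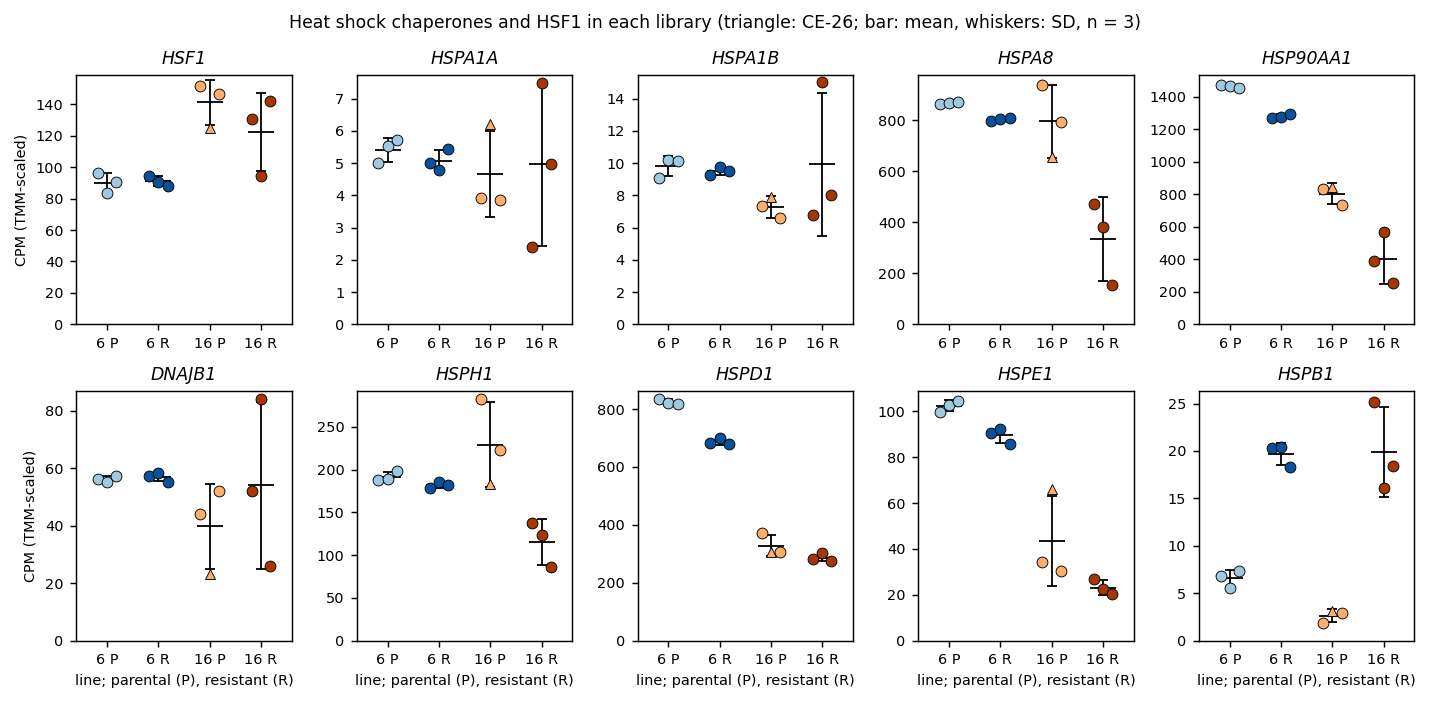
Level of each of the 10 genes in each of the 12 libraries. The y axis is CPM scaled by TMM and starts at 0, the x axis gives the line with parental (P) and resistant (R) libraries, points are libraries, the triangle is CE-26, and bars and whiskers are the mean and SD of 3 libraries. HSPB1 sits at 1.82 to 7.30 CPM in the parental libraries and at 16.05 to 25.2 CPM in the resistant ones, while HSPA8, HSP90AA1 and HSPH1 sit lower in resistant than in parental SUDHL16.

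The estimated rise of HSPB1 was larger in SUDHL16 than in SUDHL6. The difference between the lines in the log2 fold change was 1.41 (SE 0.33, 95% interval 0.69 to 2.14), with an edgeR adjusted p of 0.0233 in a fit of all 12 libraries, in which 7.16% of 19621 genes were called. HSPB1 was the only member called there. That fit shares its estimate of the spread between the lines, although SUDHL16 libraries spread far more than SUDHL6 libraries. Its SE of 0.33 is below the 0.40 of the SUDHL16 change alone, so that its p-values may be too small and its intervals too narrow. Without CE-26 the difference was 1.45 with an edgeR adjusted p of 0.0119. Its edgeR adjusted p was above the threshold without CE-7 (0.0687), CE-9 (0.0761), CE-10 (0.0685), CE-11 (0.0691), CE-12 (0.0815) or CE-25 (0.0516), and the difference was 1.22 to 1.65 over all libraries left out in turn. The 2 HSPB1 pseudogenes in the files held 0 to 7 reads per library, among them 3 in CE-26, where HSPB1 had 9.

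HSF1, the transcription factor itself, did not pass the test in either line. The gene (ENSG00000185122) lies on chromosome 8 at 144291591 to 144314720. In SUDHL6 its level was 96.0, 83.4 and 90.4 CPM in parental and 94.3, 90.6 and 87.9 CPM in resistant libraries, and the groups overlapped. Its log2 fold change was 0.02 (95% interval -0.08 to 0.11) with an edgeR adjusted p of 0.813. In SUDHL16 HSF1 was at 152, 125 and 147 CPM in parental and 130, 94.4 and 142 CPM in resistant libraries. There the log2 fold change was -0.21 (95% interval -0.78 to 0.36), with an edgeR adjusted p of 0.721, and -0.28 without CE-26. The end of HSF1 overlaps DGAT1 on the opposite strand over 137 bases.

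The constitutive HSP70, HSPA8 (ENSG00000109971, chromosome 11, 123057489 to 123063230, minus strand), had lower levels in both resistant lines, by a small step in SUDHL6 and a wider one in SUDHL16. In SUDHL6 the parental libraries held 866, 869 and 873 CPM and the resistant libraries 798, 804 and 811 CPM. The groups did not overlap, HSPA8 fell by 0.11 on the log2 scale (SE 0.01), and the edgeR adjusted p was 4.50e-05, but the change was under the 1.5-fold limit of a call. In SUDHL16 the parental libraries held 940, 656 and 792 CPM and the resistant libraries 470, 381 and 153 CPM. These groups did not overlap either, but the resistant libraries spread widely, with CE-30 far below the other two. The log2 fold change was -1.25 (SE 0.43, 95% interval -2.23 to -0.27), which did not pass the test, with an edgeR adjusted p of 0.151 and of 0.0784 without CE-26.

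HSPH1 (ENSG00000120694, chromosome 13, 31134973 to 31162388, minus strand), the HSP110 that works with HSP70, had the lowest p among the members with lower estimates in SUDHL16. Its level there was 282, 183 and 223 CPM in parental and 137, 123 and 85.8 CPM in resistant libraries. No resistant library reached the lowest parental value. Its estimated change was -0.99 on the log2 scale (SE 0.29, 95% interval -1.65 to -0.33) with an edgeR adjusted p of 0.0974. Without CE-26, the lowest of the 3 parental libraries, it was -1.12 with an edgeR adjusted p of 0.0297, and HSPH1 was then called. In SUDHL6 the change was far smaller, from 188, 189 and 198 CPM to 178, 186 and 182 CPM. There HSPH1 fell by 0.07 on the log2 scale with an edgeR adjusted p of 0.0477, which was above the threshold without CE-7 (0.0610), CE-8 (0.0552), CE-9 (0.179), CE-10 (0.166) or CE-12 (0.0871). The difference between the lines for HSPH1 was -0.90 (edgeR adjusted p 0.103). Without CE-26 it was -1.10 (edgeR adjusted p 0.00717), against 13.4% of 20959 genes called without that library. The limit given for the HSPB1 difference holds here too, since its SE of 0.22 without CE-26 is below the 0.26 of SUDHL16 alone.

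The inducible HSP70 genes HSPA1A and HSPA1B were scarce in all 4 groups and did not pass the test. The single-exon genes lie on chromosome 6, HSPA1A (ENSG00000204389) at 31815543 to 31817946 and HSPA1B (ENSG00000204388) at 31827738 to 31830254. Their coding sequences differ at 4 of 1923 bases (99.8% identity), so that reads could be split between them by the counting, and their values are uncertain one by one. In SUDHL6 HSPA1A was at 4.99 to 5.70 CPM in parental and 4.78 to 5.45 CPM in resistant libraries. HSPA1B was at 9.08 to 10.2 CPM and 9.27 to 9.78 CPM. Both pairs of groups overlapped, with log2 fold changes of -0.09 and -0.04. In SUDHL16 HSPA1A was at 3.85 to 6.20 CPM in parental and 2.41 to 7.48 CPM in resistant libraries. HSPA1B was at 6.58 to 7.92 CPM and 6.77 to 15.0 CPM there. CE-29 was the highest resistant library for both, and the 95% intervals of the log2 fold changes ran from -1.17 to 1.40 for HSPA1A and from -0.52 to 1.42 for HSPA1B. Without CE-26 their log2 fold changes were 0.36 and 0.52, and neither passed the test.

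DNAJB1 (ENSG00000132002, chromosome 19, 14514769 to 14560391, minus strand), the J-domain partner of HSP70, did not pass the test either. In SUDHL6 the parental libraries held 56.3, 55.3 and 57.1 CPM and the resistant libraries 57.1, 58.3 and 55.3 CPM. For DNAJB1 the log2 fold change was 0.02 with a 95% interval of -0.05 to 0.09. In SUDHL16 the libraries of a group differed by as much as the groups, with 44.1, 23.1 and 51.9 CPM in parental and 52.2, 83.9 and 25.9 CPM in resistant libraries. In these libraries the log2 fold change was 0.43 (95% interval -0.59 to 1.44), with an edgeR adjusted p of 0.675, and 0.18 without CE-26. DNAJB1 overlaps TECR on the opposite strand in the annotation over 43307 bases, and the strand setting of the counting is not given in the sources used here.

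HSP90AA1 (ENSG00000080824, chromosome 14, 102080742 to 102139699, minus strand), the inducible HSP90, was the most abundant member per library in both SUDHL6 groups. Its parental libraries held 1474, 1465 and 1452 CPM and its resistant libraries 1271, 1274 and 1294 CPM. The groups did not overlap, HSP90AA1 fell by 0.19 on the log2 scale (SE 0.01), and the edgeR adjusted p was 1.92e-07. In SUDHL16 the levels were 833, 846 and 733 CPM in parental and 389, 568 and 256 CPM in resistant libraries. Again no resistant library reached a parental value, and CE-30 was the lowest. For HSP90AA1 in SUDHL16 the log2 fold change was -0.99 (SE 0.35, 95% interval -1.78 to -0.20), which did not pass the test, with an edgeR adjusted p of 0.161 and of 0.108 without CE-26. The constitutive paralogue HSP90AB1, chosen after its values were seen, was 2.56 to 2.61 times as high as HSP90AA1 in SUDHL6 parental and 2.66 to 2.70 times in resistant libraries, in CPM. In SUDHL16 this ratio was 0.764 to 0.867 in parental and 0.929 to 1.83 in resistant libraries, so that it was higher in every resistant library of both lines than in its parental libraries. CPM counts reads without regard to transcript length, and the ratio alone describes the balance within a library, not which gene moved. HSP90AB1 itself had log2 fold changes of -0.13 in SUDHL6 (edgeR adjusted p 3.53e-07) and -0.45 in SUDHL16 (edgeR adjusted p 0.408). Both estimates were smaller in size than those of HSP90AA1, and neither was called.

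The mitochondrial chaperonin genes stand head to head on chromosome 2, HSPD1 (ENSG00000144381) at 197486584 to 197516737 and HSPE1 (ENSG00000115541) at 197500140 to 197503449. They overlap in the annotation over 3310 bases on opposite strands. HSPE1 also overlaps the gene HSPE1-MOB4 on the same strand over 3037 bases, and HSPE1-MOB4 held 0 to 173 reads per library. How the counting treated reads common to these genes is not given in the sources used here. In SUDHL6 HSPD1 and HSPE1 were both lower in every resistant than in every parental library. HSPD1 was at 835, 820 and 816 CPM in parental and 684, 700 and 680 CPM in resistant libraries, and it fell by 0.26 on the log2 scale (SE 0.02, edgeR adjusted p 1.13e-07). HSPE1 was at 99.9, 103 and 105 CPM and at 90.7, 92.1 and 85.8 CPM, and it fell by 0.19 (SE 0.03, edgeR adjusted p 3.90e-04). Both changes were under the 1.5-fold limit. In SUDHL16 HSPD1 was at 370, 307 and 307 CPM in parental and 283, 302 and 276 CPM in resistant libraries. The log2 fold change of HSPD1 was -0.19 (95% interval -0.75 to 0.36), and -0.23 without CE-26, and did not pass the test. HSPE1 was at 34.2, 66.1 and 30.2 CPM in parental and 26.7, 22.3 and 20.5 CPM in resistant libraries. The value of 66.1 CPM belongs to CE-26, where reads on 26 HSPE1 pseudogenes came to 19.8% of those on HSPE1. That share was 7.80 to 16.03% in the other SUDHL16 libraries, highest in CE-29, and at most 0.887% in SUDHL6. The log2 fold change of HSPE1 was -0.89 with all libraries and -0.47 without CE-26, with edgeR adjusted p-values of 0.182 and 0.293.

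**Figure D2:**
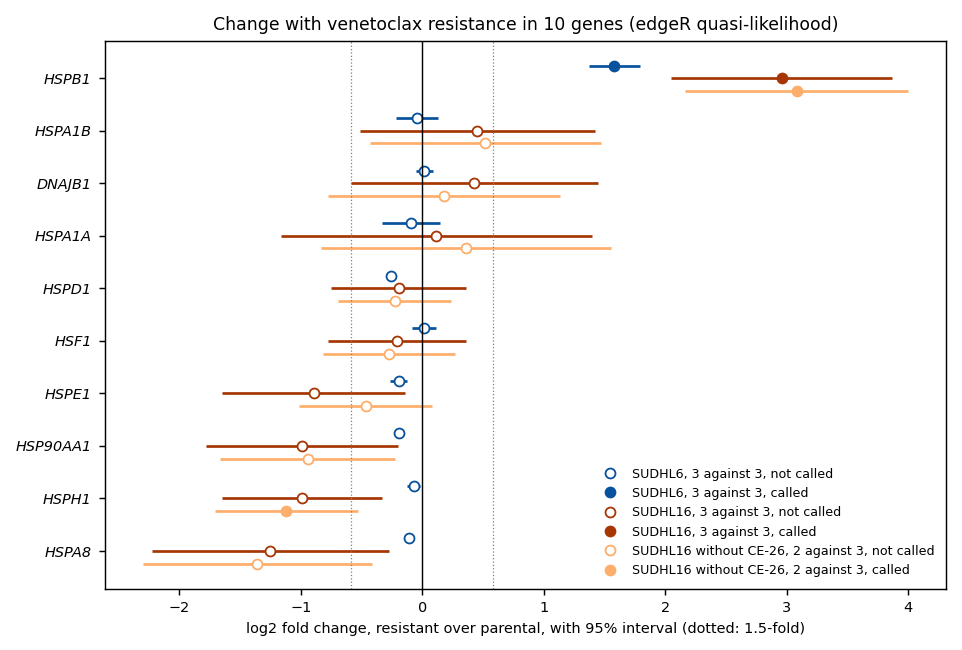
Log2 fold change of each of the 10 genes, resistant over parental, on the x axis with its 95% interval, for SUDHL6, SUDHL16 and SUDHL16 without CE-26. Filled points were called, open points were not, and dotted lines mark 1.5-fold. HSPB1 lies to the right at 1.58 and 2.96, and HSPA8, HSPH1, HSP90AA1 and HSPE1 lie to the left in SUDHL16 at -1.25 to -0.89, with much wider intervals than in SUDHL6.

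Counted over the members, 5 of 10 had an adjusted p under 0.05 and a lower level in resistant SUDHL6, against 19.7% of all genes, and none of these changes reached 1.5-fold. In SUDHL16 no member passed the edgeR test in the lower direction, which 2.10% of all genes did, while 4 (HSPA8, HSP90AA1, HSPH1 and HSPE1) had a lower level at an unadjusted p under 0.05, against 8.87% of all genes. DESeq2 and voom each called HSP90AA1, HSPA8 and HSPH1 lower in SUDHL16 beside HSPB1. Over all 15708 genes tested these methods called more as well, 1775 and 2648 genes, against 833 in the edgeR fit. Groups did not overlap for 5 members with a lower level in each line, HSPA8, HSP90AA1, HSPH1, HSPD1 and HSPE1, against 24.8% of all genes in SUDHL6 and 11.9% in SUDHL16. With a higher level this held for 1 member, HSPB1, in each line, against 23.1% and 14.6% of all genes. The median log2 fold change of the members was -0.08 in SUDHL6, where that of all genes was -4.34e-05, and -0.20 in SUDHL16, where that of all genes was -0.02. Without CE-26 the SUDHL16 members without overlap and with a lower level were 6, HSF1 added, against 19.8% of all genes, and those at an unadjusted p under 0.05 with a lower level were 3, without HSPE1, against 8.57%. The median of the members was then -0.25, and that of all genes was 0.05. The summed level of the 10 members was 3605 to 3636 CPM in parental and 3208 to 3240 CPM in resistant SUDHL6 libraries. In SUDHL16 it was 2223 to 2669 CPM in parental and 990 to 1613 CPM in resistant libraries, with the lowest in CE-30. The share of HSPB1 in that sum was 0.153 to 0.202% and 0.568 to 0.633% in SUDHL6, and 0.0681 to 0.139% and 0.995 to 1.86% in SUDHL16. In such bulk libraries, fewer cells carrying a transcript and less RNA per cell cannot be told apart.

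Read per kilobase of merged exons, the order of the members in SUDHL6 parental libraries was led by HSP90AA1, HSPA8 and HSPD1 and closed by HSPA1A. HSP90AA1 had 287 ± 2.14 CPM per kilobase, followed by HSPA8 at 179 ± 0.775 and HSPD1 at 108 ± 1.34. HSPE1 followed at 56.2 ± 1.30, HSPH1 at 22.8 ± 0.655, HSF1 at 16.9 ± 1.20 and DNAJB1 at 6.87 ± 0.110. HSPB1 at 4.04 ± 0.570 and HSPA1B at 3.89 ± 0.250 overlapped, and HSPA1A was last at 2.25 ± 0.153 (SD, n = 3). In SUDHL6 resistant libraries HSPB1 had 12.1 ± 0.713 CPM per kilobase and stood above DNAJB1 at 6.95 ± 0.186, without overlap. In SUDHL16 parental libraries HSPB1 was last at 1.61 ± 0.427, overlapping HSPA1A at 1.94 ± 0.557. In SUDHL16 resistant libraries it was at 12.2 ± 2.93, overlapping HSPE1 at 12.7 ± 1.75 above it and DNAJB1 at 6.59 ± 3.54 below it. These lengths include exons of rare transcripts, and with the length of the main transcript in their place HSPB1 and DNAJB1 had 25.3 and 25.4 CPM per kilobase in SUDHL6 resistant libraries. On that length HSPB1 was not last in SUDHL16 parental libraries, at 3.36 CPM per kilobase, where HSPA1B had 2.89 and HSPA1A 1.94.

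Beyond the members, 124 other chaperone, co-chaperone and heat shock genes in 8 lists were examined, of which 106 were tested in each line. In SUDHL6 3 were called higher and 4 lower, against 8.96% of all genes called, and the median log2 fold change was -0.04. In SUDHL16 2 were called higher and 1 lower, against 5.30% of all genes, and the median was -0.09. Without CE-26 4 were called higher and 4 lower there, against 10.0% of all genes, with HSPA12A and ATF3 added to the higher and DNAJA1, CCT2 and CHORDC1 to the lower genes; these 5 are named for that count only, after their values were seen. In the other HSP70 and HSP110 genes, 2 of 10 tested were called higher in SUDHL6 and none of 11 in SUDHL16. HSPA2, an HSP70 best known from the testis, rose from 2.09 ± 0.342 to 6.51 ± 0.717 CPM in SUDHL6 (log2 fold change 1.65, edgeR adjusted p 2.03e-06). In SUDHL16 HSPA2 was at 1.98, 3.79 and 2.17 CPM in parental and 0.938, 0.565 and 0.255 CPM in resistant libraries, on 6 to 36 reads. Every resistant library was below every parental one, and the log2 fold change of -2.15 did not pass the test (edgeR adjusted p 0.185, and 0.179 at -1.83 without CE-26). The difference between the lines for HSPA2 was -3.74 (edgeR adjusted p 0.00336), from the same fit with a shared spread. HSPA1L, a close relative of HSPA1A with 80.9% identity of the coding sequence, rose from 0.187 ± 0.0338 to 0.533 ± 0.289 CPM, on 6 to 7 and 14 to 35 reads, and its edgeR adjusted p of 0.0227 was above the threshold without CE-9 (0.0792) or CE-11 (0.157), with no filter (0.0544), with glmTreat (0.309) and in a single fit of 12 libraries. In the other HSP90 genes, HSP90B1, the HSP90 of the endoplasmic reticulum (GRP94), fell in SUDHL6 from 291 ± 3.75 to 147 ± 3.37 CPM (log2 fold change -0.99, edgeR adjusted p 1.56e-11). Its log2 fold change in SUDHL16 was 0.49 and did not pass the test. The difference between the lines for HSP90B1 was 1.53 (edgeR adjusted p 0.00272), also from the fit with a shared spread.

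Among 41 other J-domain genes tested in SUDHL6, 1 was called higher and 1 lower, and none of 38 was called in SUDHL16. DNAJC15, a J-domain protein of the mitochondrial inner membrane, rose in SUDHL6 from 0.145 ± 0.134 to 2.86 ± 0.218 CPM, on 9, 0 and 7 parental and 109 to 113 resistant reads. Its log2 fold change of 4.25 was 4.90 without CE-7 and 3.72 without CE-8, while SUDHL16 held 46.5 to 101 CPM in all its libraries. DNAJC3, an inhibitor of eIF2 kinases in the endoplasmic reticulum, fell in SUDHL6 from 84.0 ± 1.76 to 50.5 ± 0.593 CPM. Among the 14 subunits of the TRiC chaperonin and of prefoldin, VBP1 was called lower in SUDHL6, from 122 ± 1.91 to 65.5 ± 1.16 CPM. In SUDHL16 none of the 14 was called, and 13 had an estimate below 0, with a median of -0.34. Of all genes tested there 50.9% had an estimate below 0, as did 62 of the 106 listed genes. Without CE-26 it was 11 of the 14, with a median of -0.36, against 47.1% of all genes. Of the 25 co-chaperones, FKBP4, an HSP90-bound immunophilin, fell in SUDHL6 from 280 ± 2.99 to 179 ± 5.68 CPM, a call that did not hold with glmTreat (adjusted p 0.128). In SUDHL16, 1 was called higher and 1 lower.

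FKBP5, a related immunophilin of steroid receptor complexes, was at 5.29, 11.7 and 4.22 CPM in SUDHL16 parental libraries and had 0 reads in all 3 resistant libraries. Against a floor of 3 reads in each resistant library, the parental mean of 7.07 CPM with all libraries gives a fall of at least 45.2-fold. Without CE-26, the highest parental library, the mean was 4.76 CPM, which gives a smaller bound. The edgeR adjusted p of FKBP5 was 0.00670, or 0.00256 without CE-26. The same gene was at 456 to 467 CPM in all SUDHL6 libraries. UNC45A, a myosin chaperone that binds HSP90, rose in SUDHL16 from 17.2 ± 6.66 to 42.0 ± 5.11 CPM (log2 fold change 1.32, edgeR adjusted p 0.0480). Its adjusted p was 0.130 to 0.164 without any 1 of the 5 libraries other than CE-26, and 0.00417 without CE-26. It was also above the threshold with upper-quartile scaling (0.0920) and glmTreat (0.148). SERPINH1 (HSP47), the collagen chaperone, was the gene of the other heat-induced list that was called in SUDHL16, from 1.001 ± 1.03 to 18.1 ± 2.80 CPM (log2 fold change 4.54, edgeR adjusted p 0.0407). Reads of SERPINH1 in the parental libraries were 17, 6 and 0, and the log2 fold change was 5.22 without CE-26 (edgeR adjusted p 0.00810) and 3.77 without CE-27. Its adjusted p was 0.0922 to 0.180 without CE-25, CE-28, CE-29 or CE-30, 0.0603 with upper-quartile scaling and 0.0592 with glmTreat. In SUDHL6 1 of the 18 genes of that list was called, FKBP4, which is also a co-chaperone. In the HSF family, 3 genes were tested in SUDHL6 and 5 in SUDHL16, and none was called. Of the 10 other small heat shock proteins, 2 were tested in SUDHL6 and 1 in SUDHL16, and none was called. The list medians in SUDHL6 lay between -0.27 for the other HSP90 genes and 0.51 for the 2 small heat shock proteins, with the 6 other lists between -0.15 and 0.02. In SUDHL16 they were 0.49 for the other HSP90 genes, 0.23 for the other HSP70 and HSP110 genes, -0.96 for the 5 HSF family genes, -0.85 for the 1 small heat shock protein, and -0.34 to -0.03 for the other lists. Without CE-26 the median was -0.16 for the HSF family, 3.07 for the 1 small heat shock protein and 0.02 for the other heat-induced genes.

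**Figure D3:**
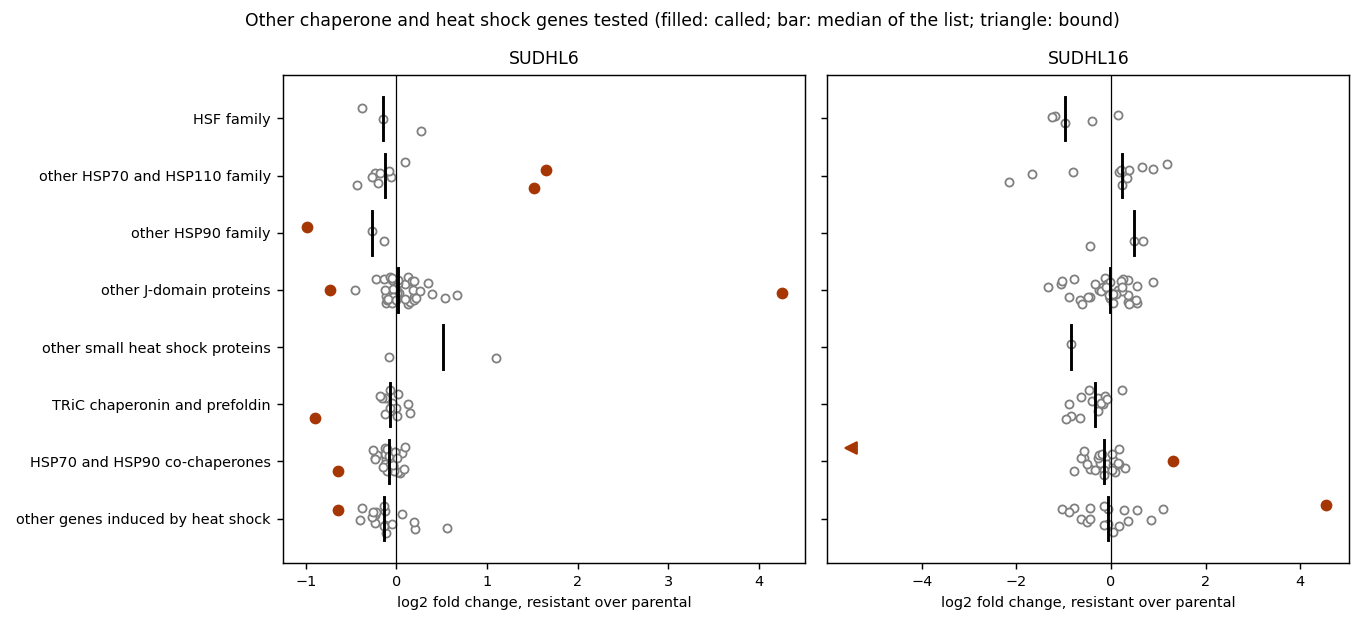
Log2 fold change, resistant over parental, of each tested gene of the 8 lists, which stand on the y axis, in SUDHL6 and SUDHL16. Filled points were called, the bar is the median of the list, and the triangle marks the bound for FKBP5, which had no reads in resistant SUDHL16. Most genes lie near 0 in SUDHL6 and spread more widely in SUDHL16, where 13 of 14 TRiC and prefoldin genes lie below 0.

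Genes near HSPB1 on chromosome 7 were compared with it to see whether its neighbours moved as well. In SUDHL6 the 52 protein-coding genes tested within 5 Mb had a median log2 fold change of 0.04, from -0.88 to 1.43, so that HSPB1 at 1.58 stood above each of them. In SUDHL16 the 40 genes tested had a median of 0.45, 28 of them were above 0, and the highest was CLIP2 at 5.34. Without CE-26 that median was 0.52. The median of all genes in SUDHL16 was -0.02. The genes within 5 Mb of HSPA8, HSPH1 and HSP90AA1 had medians of 0.05, 0.18 and -0.16 in SUDHL16, and those near HSPD1 and HSPE1 had medians of -0.31 and -0.30. Without CE-26 the median near HSP90AA1 was 0.13, above 0, and those near HSPA8, HSPH1, HSPD1 and HSPE1 were 0.05, 0.14, -0.20 and -0.18. For several of the listed genes the neighbours also had a median away from 0. Around DNAJC3 on chromosome 13 the median over 19 genes in SUDHL6 was -0.71, around VBP1 on chromosome X it was -0.72 over 58 genes, and around FKBP4 on chromosome 12 it was -0.38 over 64 genes. Around UNC45A on chromosome 15 it was 1.18 over 35 genes in SUDHL16. Around HSP90B1 it was -0.05 in SUDHL6 and around SERPINH1 0.04 in SUDHL16. DNA copy number was not analysed here.

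**Figure D4:**
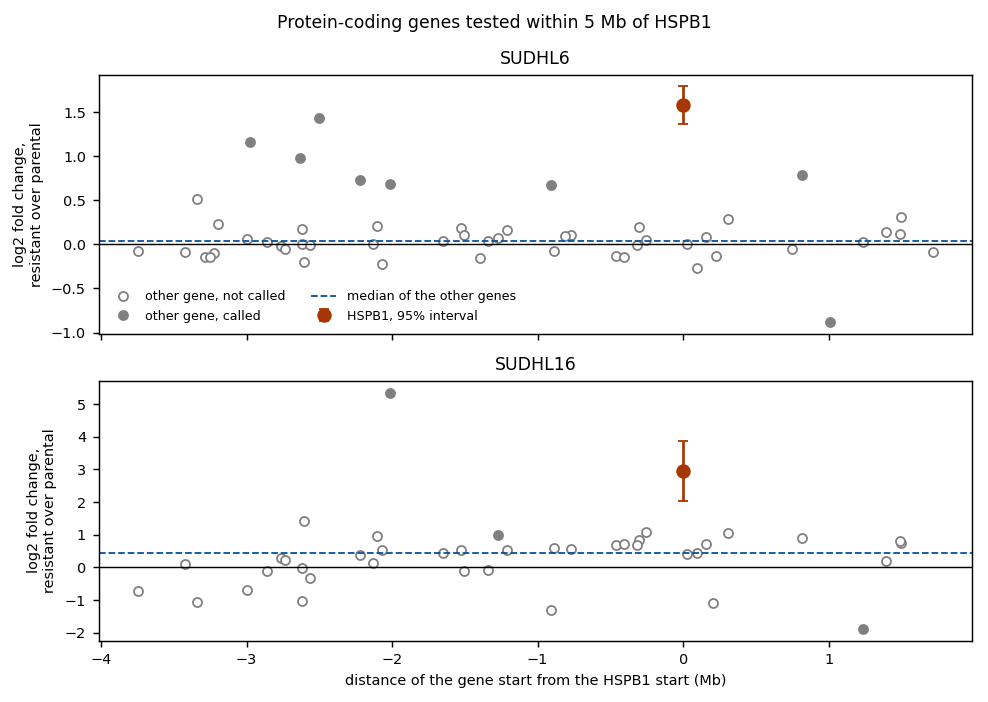
Log2 fold change, resistant over parental, of protein-coding genes within 5 Mb of HSPB1 against the distance of their start from that of HSPB1 in Mb, in SUDHL6 and SUDHL16. Filled grey points were called, the dashed line is the median of the neighbours (0.04 and 0.45), and HSPB1 is shown with its 95% interval. HSPB1 lies above every neighbour in SUDHL6 and above every neighbour but CLIP2 in SUDHL16.

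The genes whose pattern over the 12 libraries was nearest to that of HSPB1 were OAS2, CR2 and CAMK1. Likeness was the root mean square difference of log2 CPM, each gene centred within each line, among 10889 protein-coding genes, and it was 0.40, 0.42 and 0.42 where the median gene was at 1.21. OAS2 is an interferon-induced antiviral enzyme, CR2 is the complement receptor CD21 of mature B cells, and CAMK1 is a calcium-dependent kinase. OAS2 rose by a log2 fold change of 2.07 in SUDHL6 and 3.47 in SUDHL16, and CR2 by 1.90 and 3.72. CAMK1 rose by 0.72 (edgeR adjusted p 0.0479) and 3.08 (edgeR adjusted p 0.00557). These genes were picked for their likeness to HSPB1 in these same libraries. Their rise in the resistant libraries follows from that choice and is not a separate result. For HSF1 the nearest genes were WDR46, IFT27 and MORC2, at 0.04, 0.07 and 0.08, where the median gene was at 0.36. Of the chaperones, HSPD1 was the nearest to HSF1, in place 754 of 10889, and HSPB1 the farthest, in place 10255.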

How the data were processed

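Total RNA was sequenced from 12 libraries of 2 DLBCL lines, 3 in each of 4 groups named by the cell line label. Per the labels, reads were trimmed with Trim Galore, aligned to GRCh38 with HISAT2 and passed through StringTie and edgeR. The kit was NEBNext Ultra II on a HiSeq instrument for SUDHL6 and Illumina Stranded Total RNA with RiboZero Plus on a NovaSeq instrument for SUDHL16. The authors deposited raw counts per Ensembl gene. The counting tool, its annotation and its strand setting are not given in the sources used here. Symbols and positions came from GENCODE 44, which held 93.2% of the 60675 identifiers. No 2 libraries were identical.

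From the counts, edgeR 4.0.16 (filterByExpr, TMM scaling, quasi-likelihood test, two-sided, Benjamini-Hochberg over all genes tested) was fitted within each line and, for the difference between the lines, over all 12 libraries. A gene was called at an adjusted p under 0.05 and at least 1.5-fold. CPM are counts per 1000000 reads, TMM-scaled within each line. The scripts were tested on counts simulated with the means and spread of each line. In SUDHL16 0 of 50 genes changed 2-fold and 17 of 50 changed 4-fold were called. In SUDHL6 these were 39 of 50 and 46 of 50. A gene not called in SUDHL16 is therefore not shown to be unchanged. Alternatives were DESeq2 1.42.0, limma 3.58.1 voom with quality weights, other scaling, no filter, glmTreat, protein-coding genes only, 1 fit of 12 libraries, HSPA1A and HSPA1B summed, and leaving out each library. Library spread, as edgeR's common biological coefficient of variation, came to 0.0516 for SUDHL6, to 0.468 for SUDHL16 and to 0.339 once CE-26 was left out. Named genes were the members, up to 5 called genes per list and line, the 3 genes of nearest pattern, overlapping genes and marker genes. The members and lists were chosen with earlier results of these data known.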

Additional observations from a re-analysis of the deposited data

Results flagged for a closer look

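The change of HSPB1 with resistance was called different between the lines in a test of the difference itself. That test shares its estimate of the spread between the lines. Its SE of 0.33 is below the 0.40 of the SUDHL16 change alone, so that its p-value may be too small. The log2 fold change was 1.58 in SUDHL6 and 2.96 in SUDHL16, and the difference in the fit of 12 libraries was 1.41, with an edgeR adjusted p of 0.0233. The adjusted p was above the threshold in 4 of 7 other analyses (0.052 to 0.088) and in 6 of 12 fits that left out 1 library (0.0516 to 0.0815). The resistant levels were close, at 19.7 ± 1.16 and 19.9 ± 4.75 CPM (SD, n = 3), while the parental levels were 6.55 ± 0.926 and 2.61 ± 0.693 CPM. The lines also differed in kit and sequencer, whose part cannot be told apart from that of the line. CPM were scaled within each line, so that these levels are not on a common scale.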

How the results depend on the processing

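HSPB1 was called in both lines under each alternative, with log2 fold changes of 1.48 to 1.67 in SUDHL6 and 2.74 to 3.11 in SUDHL16. In SUDHL6 the 1493 called genes became 588 with glmTreat and 140 in the single fit of 12 libraries, and 1369 to 1462 with libraries left out in turn, while 1 member was called throughout. In SUDHL16 the 833 called genes became 1775 with DESeq2, 517 with glmTreat, 2648 with voom, 2855 in the single fit and 279 to 1636 with libraries left out (highest without CE-26). The members called there became 4 with DESeq2, 4 with voom (both HSP90AA1, HSPA8, HSPB1 and HSPH1), 5 in the single fit (also HSPE1) and 1 to 2 with libraries left out. For the difference between the lines, 1404 called genes became 2821 with DESeq2, 841 with no filter, 803 with glmTreat, 2720 with voom and 830 to 2805 with libraries left out. The members called became 2 with DESeq2, 0 with no filter, 0 with glmTreat, 3 with voom, 2 among protein-coding genes and 0 to 2 with libraries left out. The edgeR adjusted p of the HSPB1 difference was 0.056 with no filter, 0.088 with glmTreat and 0.052 with upper-quartile scaling, and 0.084 by voom. The cause of these shifts was not tested.

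Of the genes of the other lists, the SUDHL6 calls of HSPA2, DNAJC3, VBP1 and FKBP4 were lost in the single fit of 12 libraries (adjusted p 0.159, 0.388, 0.161 and 0.850).

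Estimates of members that changed sign were not called. Upper-quartile scaling gave -0.0030 for HSPA1A in SUDHL16 and -0.053 for the HSPD1 difference. With libraries left out, the range was -0.032 to 0.069 for HSF1 and -0.0011 to 0.036 for DNAJB1 in SUDHL6, -0.32 to 0.46 for HSPA1A and -0.044 to 0.77 for DNAJB1 in SUDHL16, and -0.11 to 0.65 (HSPA1A), -0.055 to 0.75 (DNAJB1) and -0.013 to 0.28 (HSPD1) for the difference. Library totals moved the median of all genes in SUDHL16 by 0.13 and upper-quartile scaling moved that of the difference by -0.15. Where a library is left out, 2 remain in its group. No paired analysis was possible because the labels number no replicates. Depth limits HSPB1 in CE-26 to 9 reads.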
